A study of Mus musculus with 26 samples.

Results

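The splicing regulators described here are the hnRNP genes, the SR protein genes and Khsrp. They were taken by name: every entry marked as protein coding whose symbol starts with Hnrnp or Srsf, or is Khsrp. The rule found 33 such genes among 40481 in each of the mouse spheroid and crypt tables, and 40 among 55093 in the human Caco-2 table. After a filter on low counts, 32 of the 33 were tested in spheroids, 31 of the 33 in crypts and 37 of the 40 in Caco-2. The set itself was selected on the log2 fold changes and calls of the contrasts below, so every fold and call of a member is a description and carries no test of its own.

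RNA was sequenced from 26 samples of 3 systems in which Fgfr1op, a gene for a centrosomal protein, was removed or reduced. Crypt-enriched cells of mouse small intestine were labelled Fgfr1op KO or WT, with 3 mice of each genotype at day 6 and 3 at day 9 after tamoxifen. Small intestinal spheroids, which are epithelial cultures in Matrigel with L-WRN conditioned medium, came from 4 Fgfr1op KO and 4 WT mice. They were taken at day 3 after hydroxytamoxifen, used at 250 nM. Caco-2 is a human colorectal adenocarcinoma line. Its cells carried a doxycycline-inducible hairpin, either shFgfr1op or the non-targeting scramble, with 3 samples of each at day 3 after doxycycline. The tamoxifen or doxycycline time points are given for both arms of each comparison. The recombinase, its driver and the age of the mice are not given in the sources used here. Each Caco-2 arm is 1 hairpin, and no label says that its samples came from separate cultures, so the spread there may be technical. The crypt table's columns name genotype but not day, so days 6 and 9 were compared together as 6 KO against 6 WT libraries.

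hnRNPs and SR proteins are RNA-binding proteins that meet the transcript as it leaves the polymerase. SR proteins carry arginine-serine domains and mostly bind exonic enhancers, where they recruit the spliceosome. Many hnRNPs bind silencers and act against them, so the balance of both families sets which exons are kept. Khsrp binds AU-rich and G-rich RNA through KH domains, and serves in splicing, in decay of AU-rich mRNAs and in microRNA maturation. Many members control their own mRNA through exons that lead to nonsense-mediated decay, so a gene-level count does not separate productive from unproductive transcripts.

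Promoters are shown for the 4 members of largest log2 fold change among those called in crypts. Each is the 250 bases upstream of the gene's start in RefSeq on GRCm38.p6, read 5′ to 3′ on the gene's strand, with motif matches in capitals. They lie at chr17:33685459-33685708 (minus strand) for Hnrnpm, chr11:51606882-51607131 (minus strand) for Hnrnpab, chr5:115326927-115327176 (plus strand) for Srsf9 and chr2:162931258-162931507 (plus strand) for Srsf6. For Hnrnpm the RefSeq window ends 1402 bases inside the gene as GENCODE M21 draws it.
Hnrnpm: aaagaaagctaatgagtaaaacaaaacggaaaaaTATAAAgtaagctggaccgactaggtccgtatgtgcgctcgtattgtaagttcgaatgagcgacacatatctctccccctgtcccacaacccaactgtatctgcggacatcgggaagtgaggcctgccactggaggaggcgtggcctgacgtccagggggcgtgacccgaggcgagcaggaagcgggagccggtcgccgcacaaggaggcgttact
Hnrnpab: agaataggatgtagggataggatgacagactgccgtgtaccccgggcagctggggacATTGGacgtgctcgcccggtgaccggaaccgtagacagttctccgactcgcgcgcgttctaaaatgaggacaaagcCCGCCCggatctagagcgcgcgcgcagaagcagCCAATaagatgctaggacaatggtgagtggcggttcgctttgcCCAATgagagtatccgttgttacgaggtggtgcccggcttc
Srsf9: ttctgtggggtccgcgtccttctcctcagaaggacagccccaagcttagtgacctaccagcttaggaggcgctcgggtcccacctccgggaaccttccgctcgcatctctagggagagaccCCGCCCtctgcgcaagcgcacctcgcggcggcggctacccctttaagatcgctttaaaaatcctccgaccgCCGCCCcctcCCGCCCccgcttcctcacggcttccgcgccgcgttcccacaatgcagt
Srsf6: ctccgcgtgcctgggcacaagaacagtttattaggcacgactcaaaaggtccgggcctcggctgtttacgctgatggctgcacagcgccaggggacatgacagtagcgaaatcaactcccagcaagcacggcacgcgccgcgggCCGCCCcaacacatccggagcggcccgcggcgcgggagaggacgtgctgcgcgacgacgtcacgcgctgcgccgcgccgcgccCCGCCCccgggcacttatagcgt
The motifs searched on both strands were the ETS core CCGGAAG, the GC box GGGCGG, the NRF1 site, the CCAAT box CCAAT, the TATA box TATAAA and the E-box CACGTG. Capitals mark 1 TATA box in Hnrnpm, 1 GC box and 3 CCAAT boxes in Hnrnpab, 3 GC boxes in Srsf9 and 2 GC boxes in Srsf6. Some matches are printed as their reverse complement, such as CCGCCC for the GC box and ATTGG for the CCAAT box. Over the promoters of 30 members that were matched by symbol, 24 held a GC box, against 32.9% of 27025 mouse promoters. A CCAAT box was in 16 of the 30, against 34.5% of all promoters, and an ETS core in 6, against 7.05% of all. TATAAA was in 3 of the 30, against 13.0% of all, the E-box in 2, against 6.05%, and the NRF1 site in 0, against 0.781%. For a member the promoter nearest its GENCODE start was used, and for all genes the first promoter listed. The background was not limited to genes expressed here, so these shares do not set the members apart from other expressed genes. A match is a description of the letters in these windows and shows no bound factor.

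The targeted gene checks the labels. In crypts Fgfr1op (ENSMUSG00000069135, chr17:8165501-8196804, GENCODE M21) averaged 21.1 ± 5.22 CPM in KO crypts, against 32.9 ± 6.27 CPM in WT crypts (SD, n = 6 each; exact two-sided permutation p = 0.00649), where CPM is the count relative to the scaled total of the library. The groups touched, with a range of 11.7 to 25.9 CPM in KO and 25.2 to 39.0 CPM in WT. In spheroids it averaged 17.4 ± 1.98 CPM in KO spheroids, against 23.2 ± 1.12 CPM in WT spheroids (SD, n = 4 each; exact p = 0.0286, the smallest that 4 against 4 allows). By edgeR it was not called in spheroids, with an adjusted p of 0.117, whereas it was called in crypts at 0.0261 and in Caco-2 at 1.65e-14. In Caco-2 it averaged 6.82 ± 0.414 CPM with shFgfr1op and 15.7 ± 0.208 CPM with scramble (SD, n = 3 each; exact p = 0.1, the smallest that 3 against 3 allows). Crypt KO libraries 4, 5 and 6 stood apart from the other 9. On the first principal component, which held 68.7% of the variance, they lay between 84.4 and 104, while KO libraries 1 to 3 lay between -18.9 and 0.967 and the WT libraries between -47.1 and -33.4. Column names give no day, so whether KO libraries 4, 5 and 6 are the day 9 mice cannot be told. Summed enterocyte markers were 5954, 2514 and 4928 CPM in KO libraries 4, 5 and 6, against 13431 to 34363 CPM in WT. Summed Paneth cell markers were 7588, 11388 and 7075 CPM in those 3 KO libraries, against 32142 to 79456 CPM in WT. Over all 6 KO libraries against the 6 WT libraries, enterocyte sums ran from 2514 to 29990 and from 13431 to 34363 CPM, Paneth sums from 7075 to 48542 and from 32142 to 79456 CPM, and pan-epithelial sums from 15292 to 25625 and from 9735 to 17110 CPM. Immune markers summed to 166 to 332 CPM in KO and 296 to 528 CPM in WT, and proliferation markers to 1516 to 2316 CPM in KO and 1033 to 1976 CPM in WT. Stem cell markers summed to 418 to 1261 CPM in KO and 1070 to 2415 CPM in WT, and goblet cell markers to 4832 to 6254 CPM in KO and 5667 to 7976 CPM in WT. By gene in crypts, edgeR called 2 of 9 enterocyte markers lower and 0 higher. It called 3 of 10 pan-epithelial, 2 of 12 proliferation and 1 of 6 goblet cell markers higher, and 0 lower. Called in neither direction were the 6 Paneth cell, 8 stem cell and 13 immune markers. No immune or stromal marker was at 0 in all crypt libraries. In spheroids pan-epithelial markers summed to 15451 to 18201 CPM in KO and 13412 to 15284 CPM in WT, and immune markers to 3.97 to 5.71 CPM in KO and 5.62 to 8.43 CPM in WT. By gene, 0 of the 10 pan-epithelial markers and 0 of the 3 immune markers tested were called there. The median log2 fold change of the pan-epithelial markers was -0.0066. The part of cell composition in the crypt results below was not tested, and in bulk RNA fewer cells of a type and less RNA per cell cannot be told apart.

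In KO crypts 7 splicing regulators were called higher than in WT crypts and 0 lower (edgeR quasi-likelihood test, Benjamini-Hochberg adjusted p below 0.05 over all genes). The 7 were Hnrnpm, Hnrnpab, Srsf9, Srsf6, Hnrnpa1, Hnrnpdl and Hnrnph1, with log2 fold changes between 0.31 and 0.94, and the other 24 tested members were not called. Over all 16413 genes tested in crypts, 24.5% were called, with 14.0% higher and 10.5% lower in KO, and nothing is read from the members' count since the rule knew this contrast. At an unadjusted p below 0.05 there were 10 members higher and 1 lower. The share of all genes at that unadjusted level was not counted, so nothing is read from these 2 counts. DESeq2 called 7 members higher and 0 lower, and limma voom 8 higher and 2 lower. Over all 16413 genes DESeq2 called 2606 higher and 2309 lower, and limma voom 3627 higher and 3581 lower. The median log2 fold change was 0.21 over the 31 members and 0.055 over all genes, with 23 members above 0 and 8 below.

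Among the hnRNPs, Hnrnpm, which binds GU-rich introns and exons, showed the largest log2 fold change and also the widest spread. It ran from 144 through a median of 214 to 263 CPM in KO crypts, and from 39.6 through 109 to 176 CPM in WT crypts. The groups overlapped, because WT library 2, at 176 CPM, lay above KO libraries 1 and 3, at 144 and 149 CPM. The log2 fold change was 0.94 ± 0.32 (SE), and only 3 of the 12 fits that left out 1 library still called it. Leaving out any of KO 2, 4, 5 and 6 or WT 1, 3, 4, 5 and 6 ended the call.

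Hnrnpab, an A/B-type hnRNP of the nucleus and cytoplasm, ran from 25.4 through a median of 27.7 to 58.9 CPM in KO crypts, and from 14.5 through 16.6 to 20.9 CPM in WT crypts. Every KO library lay above every WT library. Its log2 fold change was 0.90 ± 0.21 and it stayed called in 12 of 12 such fits. KO library 1 held the highest value by far, and without it the log2 fold change was 0.65. Without KO libraries 4, 5 and 6 it was 1.16.

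Hnrnpa1, the silencer-binding hnRNP best known for acting against SRSF1, ran from 403 through 576 to 643 CPM in KO crypts and from 252 through 376 to 418 CPM in WT crypts. KO library 1, at 403 CPM, was the sole KO library within the WT range. The log2 fold change was 0.59 ± 0.15, called in 12 of 12 fits that left out 1 library, but not without KO libraries 4, 5 and 6, where it was 0.54. Hnrnpdl, a relative of the AU-rich decay factor Hnrnpd, ran from 34.9 through 53.5 to 61.1 CPM in KO and from 25.8 through 34.8 to 44.6 CPM in WT. KO library 3 alone lay within the WT range, and the log2 fold change of 0.54 ± 0.17 stayed called in 5 of 12 fits. Its call ended without any of KO 4, 5 and 6 or WT 1, 3, 4 and 5. Hnrnph1, which binds runs of G, ran from 108 through 120 to 139 CPM in KO and from 88.5 through 99.1 to 110 CPM in WT. Its log2 fold change was 0.31 ± 0.11, and 1 of 12 fits called it, the one without KO library 1.

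Of the SR protein genes, Srsf9 ran from 6.71 through 7.61 to 13.4 CPM in KO crypts and from 4.33 through 4.99 to 6.02 CPM in WT crypts. Srsf6 ran from 30.4 through 35.9 to 65.5 CPM in KO and from 24.1 through 25.8 to 28.9 CPM in WT. In both genes all 6 KO libraries lay above all 6 WT libraries. The log2 fold changes were 0.74 ± 0.19 for Srsf9, called in 12 of 12 fits, and 0.63 ± 0.18 for Srsf6, called in 11 of 12, the exception being the fit without WT library 5. Without KO library 1 they were 0.56 and 0.43. With Hnrnpab, these made 3 members whose groups did not overlap, all higher in KO, where 4.9% of all genes did the same and 5.71% were without overlap and lower (10.6% in either direction).

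Members that were not called covered the rest of both families. Khsrp ran from 24.4 through 30.8 to 59.1 CPM in KO crypts and from 22.5 through 24.2 to 30.3 CPM in WT crypts, a log2 fold change of 0.40 ± 0.20. Its 59.1 CPM came from KO library 1, and without that library the log2 fold change was 0.17. Srsf1, the founding SR protein, and Hnrnpd, the AU-rich decay factor AUF1, had log2 fold changes of 0.46 ± 0.21 and 0.48 ± 0.23 with the same library on top, at 106 and 66.2 CPM. Without KO library 1 they were 0.20 and 0.19, and neither was called. Without KO libraries 4, 5 and 6 they were 0.78 and 0.86, and both were called. The lowest values were those of Srsf2, at -0.40 ± 0.19, Hnrnpr at -0.28 ± 0.14 and Hnrnph3 at -0.23 ± 0.17. The U-type proteins Hnrnpu, Hnrnpul1 and Hnrnpul2 lay between -0.10 and 0.11, with KO library 1 the highest KO library for each of them. Without that library they stood at -0.051, -0.22 and -0.46, and Hnrnpul2 was called lower, as it was by limma voom. Untested were a second Srsf1 entry, at 0 counts in every library, and Srsf12, at 0 to 28 counts.

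The crypt KO libraries did not carry a common level across members. KO library 1 was the highest of all 12 libraries for 12 of 31 members, and for 5 others it was the lowest. Its top members included Hnrnpab, Hnrnpd, Srsf1, Srsf9, Srsf6 and Khsrp, while Hnrnpa2b1, at 958 CPM, was lowest in it. KO library 4 was highest for 6 members, and WT library 3 was lowest for 7. Ranks of the libraries over all genes were not counted, so these counts are not read as a trait of the members. The summed CPM of the 31 members ran from 5378 to 6956 in KO and from 4930 to 6348 in WT, and KO library 1 held the lowest of the KO sums. Without KO libraries 4, 5 and 6, 5 of the 31 members were called (Hnrnpab, Srsf6, Srsf9, Hnrnpd and Srsf1), all higher. In that fit 924 of 16924 genes were called, 460 higher and 464 lower. The day of each library is not known, so the KO and WT libraries of that fit may differ in day.

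**Figure D1:**
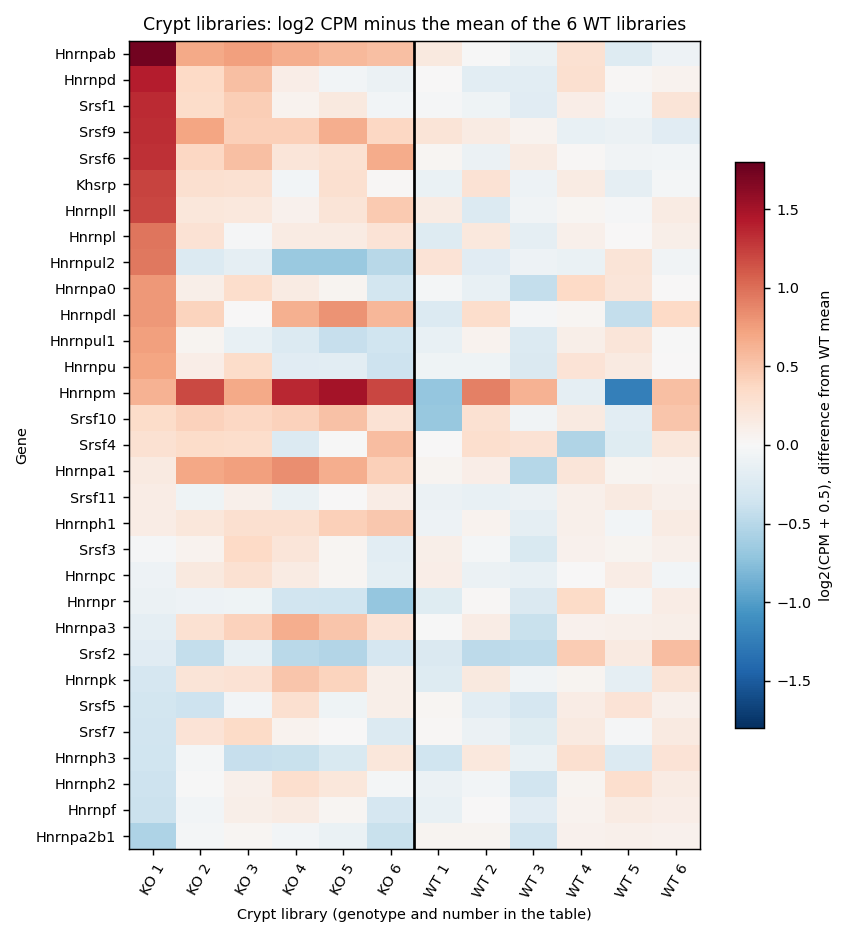
Each row is a splicing regulator, each column a crypt library (6 KO left of the line, 6 WT right), and colour gives log2(CPM + 0.5) minus the mean of the 6 WT libraries. KO library 1 is the highest of 12 for 12 of the 31 genes, whereas Hnrnpa1 is lower in it than in KO libraries 2 to 6. The share over all genes was not counted.

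In Caco-2 cells with shFgfr1op 17 members were called higher than with scramble and 3 lower, while 17 were not called. Over all 18905 genes tested, 31.9% were called, 15.7% higher and 16.2% lower, and the rule knew this contrast too. The median log2 fold change was 0.10 over the 37 members and -0.0051 over all genes. DESeq2 and limma voom each called 17 members higher and 2 lower. Over all 18905 genes DESeq2 called 2823 higher and 2789 lower, and limma voom 3035 higher and 3186 lower. Enterocyte markers summed to 1045 to 1204 CPM with shFgfr1op and 1985 to 2020 CPM with scramble, with 6 of the 7 tested called lower and 1 higher. Goblet cell markers summed to 85.9 to 96.0 CPM with shFgfr1op and 155 to 158 CPM with scramble, and stromal markers to 260 to 266 CPM and 296 to 311 CPM in these arms. Pan-epithelial markers summed to 9116 to 9825 CPM with shFgfr1op and 10105 to 10144 CPM with scramble, with 4 of 8 called lower. Of the stem cell markers 5 of 7 were called higher and 1 lower, with sums of 586 to 598 CPM with shFgfr1op and 587 to 600 CPM with scramble. The part of these markers in the results was not tested. Changes of the members were small beside that of KHSRP: the other 19 members called lay between -0.21 and 0.27 in log2 fold change. The groups did not overlap for 19 members that were higher and 3 that were lower with shFgfr1op, where 20.8% and 21.5% of all genes did not overlap in these directions (42.4% in either).

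KHSRP read 627, 614 and 624 CPM with shFgfr1op, against 372, 364 and 364 CPM with scramble. Replicates of each arm lay close together and the arms were far apart. The log2 fold change was 0.76 ± 0.029 and was called in 6 of 6 fits that left out 1 library. HNRNPUL1, a U-like hnRNP that also takes part in the response to DNA breaks, read 566, 543 and 547 CPM with shFgfr1op and 467, 448 and 454 CPM with scramble, a log2 fold change of 0.27 ± 0.030.

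HNRNPA1 was lower, at 683, 658 and 655 CPM with shFgfr1op against 761, 773 and 779 CPM with scramble, without overlap. The log2 fold change was -0.21 ± 0.029. Its near copies HNRNPA1P48 and HNRNPA1L2 had log2 fold changes of -0.19 ± 0.070, called in 2 of 6 fits that left out 1 library, and -0.16 ± 0.11, not called. Those 3 genes share sequence, so how the authors' counting split reads among them is uncertain. HNRNPDL read 191, 182 and 193 CPM with shFgfr1op and 209, 204 and 202 CPM with scramble, also without overlap, and its log2 fold change was -0.12 ± 0.034. That call ended without shFgfr1op library 2.

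The other hnRNPs called higher were HNRNPA0, HNRNPA2B1, HNRNPA3, HNRNPC, HNRNPD, HNRNPH1, HNRNPK, HNRNPR and HNRNPU, with log2 fold changes between 0.092 and 0.19. HNRNPH1 read 424, 409 and 418 CPM with shFgfr1op and 388, 390 and 367 CPM with scramble, at 0.13 ± 0.031. The calls of HNRNPC and HNRNPK held in 4 and 3 of 6 fits that left out 1 library. HNRNPC lost its call without shFgfr1op library 1 or scramble library 1, and HNRNPK without either of these or shFgfr1op library 2. HNRNPAB and HNRNPM, the members of largest fold in crypts, stood at 0.023 ± 0.036 and 0.075 ± 0.031 and were not called.

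Of the SR protein genes, SRSF1, SRSF2, SRSF3, SRSF4, SRSF6 and SRSF7 were called higher with shFgfr1op. SRSF6 read 294, 296 and 297 CPM with shFgfr1op and 254, 267 and 247 CPM with scramble, and its log2 fold change was 0.21 ± 0.032. SRSF4 had 0.21 ± 0.045, SRSF1 and SRSF2 0.17 each, SRSF7 0.14 ± 0.039 and SRSF3 0.12 ± 0.034. SRSF5, SRSF8, SRSF9, SRSF10 and SRSF11 lay between -0.067 and 0.10 and were not called. SRSF12 was near the floor of detection, at 0.472, 0.264 and 0.384 CPM with shFgfr1op and 0.482, 0.598 and 0.434 CPM with scramble, from 10 to 30 counts a library. Its log2 fold change of -0.43 ± 0.46 was within its error. The HNRNPC-like copies also had few reads, with 31 to 65 counts for HNRNPCL1 and 13 to 38 for HNRNPCL4. HNRNPCL2, HNRNPCL3 and the readthrough gene HNRNPUL2-BSCL2, at 9 counts or fewer, were not tested.

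In spheroids 0 of the 32 members tested were called by edgeR, by limma voom or in any fit that left out 1 library. Over all 15915 genes tested, 0.232% were called, 0.189% higher and 0.044% lower in KO. At an unadjusted p below 0.05 there were 3 members higher and 1 lower in KO, and the share of all genes at that level was not counted. DESeq2 called 1 member, Srsf9, and 581 of the 15915 genes. The members' log2 fold changes lay between -0.27 and 0.28, with a median of 0.022 against -0.0018 over all genes.

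Srsf9 had 78.3, 97.4, 86.6 and 83.9 CPM in KO spheroids, against 67.2, 72.1, 75.8 and 69.4 CPM in WT spheroids. All 4 KO libraries lay above all 4 WT libraries, and the log2 fold change was 0.28 ± 0.076. Hnrnpa0, an A-type hnRNP, was the other member whose groups did not overlap, with 612 to 670 CPM in KO and 519 to 593 CPM in WT; 4.55% of all genes were without overlap and higher in KO, and 4.02% lower (8.56% in either direction). Hnrnpdl had 138, 119, 107 and 99.8 CPM in KO spheroids, against 142, 143, 149 and 125 CPM in WT spheroids. KO library 1 lay within the WT range, and the log2 fold change was -0.27 ± 0.10. Srsf5 had 202, 193, 168 and 156 CPM in KO and 191, 213, 248 and 191 CPM in WT, at -0.23 ± 0.11 with overlap. Hnrnpab had 784, 941, 712 and 818 CPM in KO and 700, 674, 746 and 679 CPM in WT, at 0.22 ± 0.087, where KO library 3 lay below the highest WT library.

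Of the members called in another system, Khsrp, Hnrnpa1, Srsf6 and Hnrnph1 had overlapping groups here. Khsrp had 241, 257, 235 and 264 CPM in KO spheroids and 237, 237, 250 and 240 CPM in WT spheroids, a log2 fold change of 0.048 ± 0.062. Hnrnpa1 had 878, 736, 828 and 771 CPM in KO and 826, 896, 798 and 854 CPM in WT, at -0.071 ± 0.074. Srsf6 had 178, 215, 170 and 184 CPM in KO and 175, 158, 210 and 173 CPM in WT, at 0.058 ± 0.10. Hnrnph1 had 207, 230, 205 and 197 CPM in KO and 180, 180, 209 and 189 CPM in WT, at 0.15 ± 0.074. Srsf12 was tested on 16 to 33 counts a library.

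**Figure D2:**
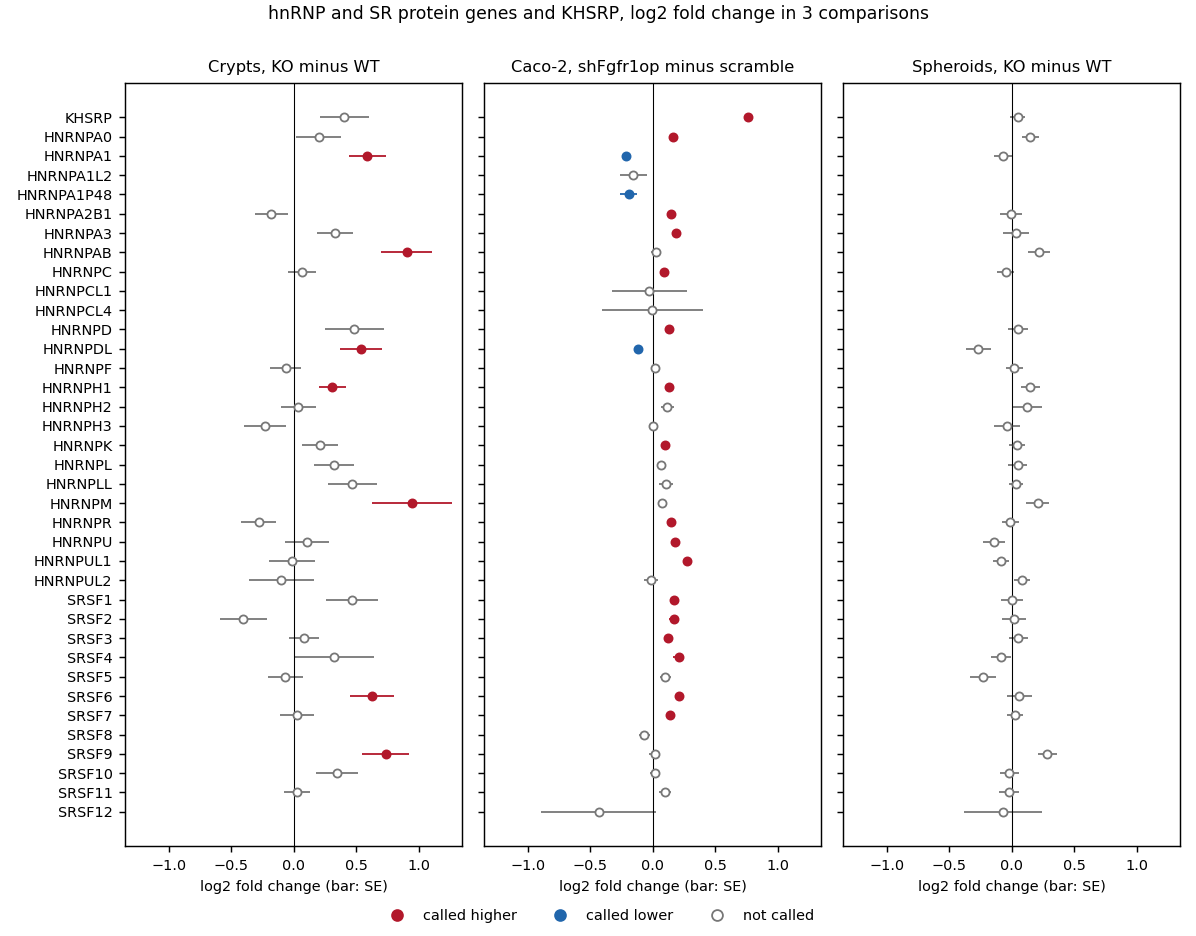
Log2 fold change of each tested splicing regulator in crypts, Caco-2 and spheroids (KO minus WT, or shFgfr1op minus scramble), with bars of 1 SE, filled where called. In crypts 7 points are called and all are positive, in Caco-2 KHSRP at 0.76 lies far right of the other 19 called points, and in spheroids no point is called. Over all genes tested, 24.5% were called in crypts, 31.9% in Caco-2 and 0.232% in spheroids.

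Across the 3 comparisons 31 members were tested in each, matched between mouse and human by symbol. The samples of the 3 systems are separate, and the difference between systems was not tested. Called in both crypts and Caco-2 were 4 members. Over all genes tested, 24.5% were called in crypts and 31.9% in Caco-2. Genes called in both were not counted over all genes, so nothing is read from the 4 members or their directions. Hnrnph1 and Srsf6 were higher in both, at log2 fold changes of 0.31 and 0.63 in crypts and 0.13 and 0.21 in Caco-2. Hnrnpa1 and Hnrnpdl were called higher in crypts, at 0.59 and 0.54, and lower in Caco-2, at -0.21 and -0.12.

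**Figure D3:**
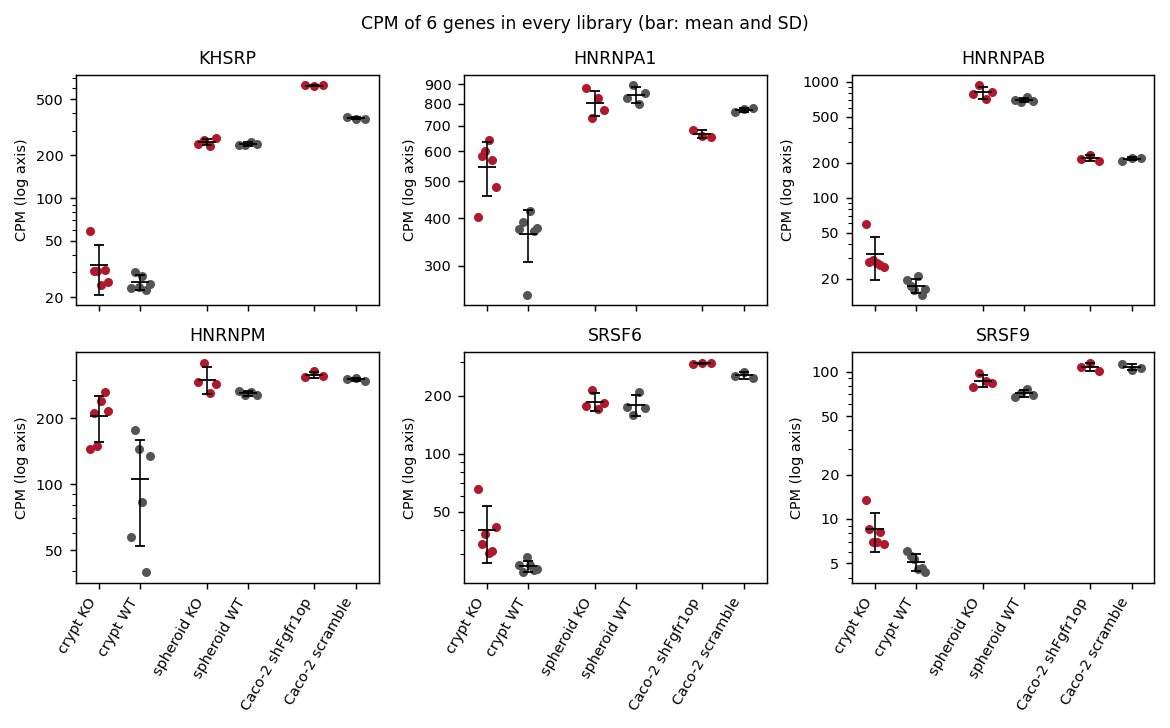
CPM on a log axis for 6 splicing regulators in every library, with crypt KO and WT, spheroid KO and WT, and Caco-2 shFgfr1op and scramble side by side; points are libraries, bars the mean and SD. The KHSRP arms of Caco-2 are apart, at 614 to 627 CPM with shFgfr1op and 364 to 372 CPM with scramble, and HNRNPA1 is higher in KO crypts but lower with shFgfr1op.

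The wider splicing and mRNA decay machinery was followed in 5 lists of 128 genes in all. These lists were chosen with earlier results of these data known. Their counts in each comparison are therefore descriptions that carry no test, also where a second method repeats them on the same libraries. In crypts 37 of the 127 genes tested were called higher in KO and 1 lower, beside 14.0% higher and 10.5% lower over all genes. Of the 41 core spliceosome genes tested, 17 were called higher and 0 lower. At an unadjusted p below 0.05 there were 26 higher and 0 lower, and DESeq2 and limma voom called 17 and 24 higher and 0 lower. For this list and those below, the share of all genes at the unadjusted level was not counted, so nothing is read from the unadjusted counts. Over all 16413 genes DESeq2 and limma voom called 2606 and 3627 higher, and 2309 and 3581 lower. The median log2 fold change of the core spliceosome genes was 0.37, against 0.055 over all genes. Sf3b4, a subunit of the branch-site complex SF3b, averaged 42.0 CPM in KO and 17.1 CPM in WT without overlap, at 1.29 ± 0.24. Dhx38, the helicase of the second splicing step, averaged 57.0 CPM in KO and 24.7 CPM in WT, at 1.20 ± 0.30.

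Of the nonsense-mediated decay genes in crypts, 6 of 14 were called higher, among them Smg9 at 0.96 ± 0.22 and Smg5 at 0.94 ± 0.19, both partners of the UPF1 cycle. The AU-rich decay genes had 6 of 15 called higher, with Zfp36l1, an AU-rich binding decay factor, at 0.98 ± 0.26 and the exosome subunit Exosc4 at 0.77 ± 0.22. Other splicing RNA-binding proteins had 7 of 39 called higher, with Rbfox2 at 0.94 ± 0.20 and the epithelial regulator Esrp2 at 0.84 ± 0.25. For these 3 lists edgeR and DESeq2 called 0 lower, also 0 at an unadjusted p below 0.05, and limma voom called 1 other splicing gene and 1 decay gene of the nonsense-mediated list lower. SR partners and kinases had 1 of 18 higher, the exon junction component Rnps1 at 0.56 ± 0.13, and 1 lower, the SR kinase Srpk2 at -0.49 ± 0.14. Without KO libraries 4, 5 and 6 the total over the 5 lists was 13 higher and 0 lower, of which 8 were core spliceosome genes and 0 were of nonsense-mediated decay. Over all 16924 genes of that fit 460 were called higher and 464 lower.

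In Caco-2 48 of the 127 list genes tested were called higher with shFgfr1op and 18 lower, beside 15.7% higher and 16.2% lower over all genes. As in crypts, the choice of lists knew earlier results, so these counts are descriptions only. The SR partners and kinases had 10 of 18 higher and 0 lower, also 0 lower at an unadjusted p below 0.05, by DESeq2 and by limma voom. Among them were SREK1 and TRA2A, both proteins with arginine-serine domains, at 0.25 ± 0.051 and 0.23 ± 0.053. The core spliceosome had 18 of 41 higher and 3 lower, with PRPF3 and SF3A2 at 0.26 each, and nonsense-mediated decay 5 of 14 higher and 1 lower, with UPF1 at 0.21 ± 0.035 and RBM8A at 0.18 ± 0.053. Other splicing genes had 14 of 38 higher and 7 lower, among them MBNL3 at 0.67 ± 0.034 and FUBP1, a KH-domain relative of KHSRP, at -0.39 ± 0.037. The AU-rich decay list went the other way, with 1 of 16 higher and 7 lower, and a median of -0.072. ZFP36L2 averaged 593 CPM with shFgfr1op and 907 CPM with scramble, at -0.61 ± 0.030, and ZFP36 averaged 29.1 and 43.4 CPM in these arms, at -0.57 ± 0.055. KHSRP, which was higher, also serves in AU-rich decay. In spheroids edgeR, DESeq2 and limma voom called 0 of the 126 list genes tested. At an unadjusted p below 0.05 there were 9 higher and 2 lower, and the share of all genes at that level was not counted.

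The levels of the members were then compared without the contrast. On the scale of CPM per kilobase of the principal transcript in GENCODE M21, the most abundant members of WT spheroids were Hnrnpa3 at 872 ± 57.3, Hnrnpa2b1 at 558 ± 27.8 and Hnrnpa1 at 440 ± 21.6 CPM per kilobase (SD, n = 4). In WT crypts they were Hnrnpa2b1 at 848 ± 89.6, Hnrnpk at 390 ± 50.0 and Srsf5 at 236 ± 32.9 CPM per kilobase (SD, n = 6). All are hnRNPs of types A and K but Srsf5. Within each trio, neighbours in the order lay more than 1 SD apart. Srsf12 was the lowest in both, at 0.146 ± 0.0496 in WT spheroids and 0.0267 ± 0.0196 CPM per kilobase in WT crypts.

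In KO crypts the abundant Hnrnpa2b1 ran from 958 through 1321 to 1433 CPM, against 1109 through 1463 to 1498 CPM in WT crypts. Hnrnpk, a poly-C binding hnRNP, ran from 842 through 1233 to 1472 CPM in KO and from 887 through 1032 to 1223 CPM in WT. Srsf5 ran from 283 through 351 to 448 CPM in KO and from 297 through 384 to 434 CPM in WT. None of the 3 was called. In spheroids Hnrnpa3 had 1683, 1618, 1261 and 1344 CPM in KO and 1396, 1585, 1391 and 1399 CPM in WT, and Hnrnpa2b1 had 964, 1045, 789 and 892 CPM in KO and 928, 953, 967 and 862 CPM in WT, both with overlap.

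Levels of the members also differed between WT spheroids and WT crypts. The 2 tables were normalised separately, so these differences are described and not tested. Of 31 members 23 were higher in WT spheroids and 8 lower, where 8581 of 14416 genes were higher and 5835 lower. The median log2 difference in CPM was 1.29 over the members, against 0.38 over these 14416 genes. The ranges of the libraries did not overlap for 21 members that were higher and 7 that were lower. Over the 14416 genes they did not overlap for 6858 that were higher and 3952 that were lower. Hnrnpab averaged 700 CPM in WT spheroids and 17.4 CPM in WT crypts, a ratio of 40.3. Srsf4, Hnrnpul2, Hnrnpa0 and Srsf9 followed with ratios of 36.3, 29.9, 16.3 and 14.0, where Srsf4 rested on 15 to 107 counts a library over all 12 crypt libraries. A ratio of at least 10 was found for 5 of the 31 members and for 1688 of the 14416 genes. Khsrp averaged 241 CPM in WT spheroids and 25.4 CPM in WT crypts, a ratio of 9.49. At the other end Srsf7 averaged 132 CPM in WT spheroids and 316 CPM in WT crypts, a ratio of 0.417, and Hnrnpk, Srsf5, Hnrnpu, Srsf3, Hnrnph2 and Hnrnpa2b1 had ratios of 0.559 to 0.658. Srsf7 and Srsf3 are SR proteins that also serve as adaptors of mRNA export.

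Over the 31 members this log2 difference went with the GC content of the principal transcript, with Pearson r = 0.656 and Spearman rho = 0.66, against 0.252 and 0.246 over 12211 genes. It also went with how far crypt KO library 1 stood from KO libraries 2 to 6, with r = 0.691 and rho = 0.638 over the members, against -0.0249 and 0.153 over all genes. The points are genes that share the same libraries, so these are descriptions without a p. Hnrnpab, Hnrnpul2, Hnrnpd, Srsf1 and Khsrp were among the members that were high in spheroids relative to crypts and high in that KO library. The part of GC content in these levels was not tested.

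**Figure D4:**
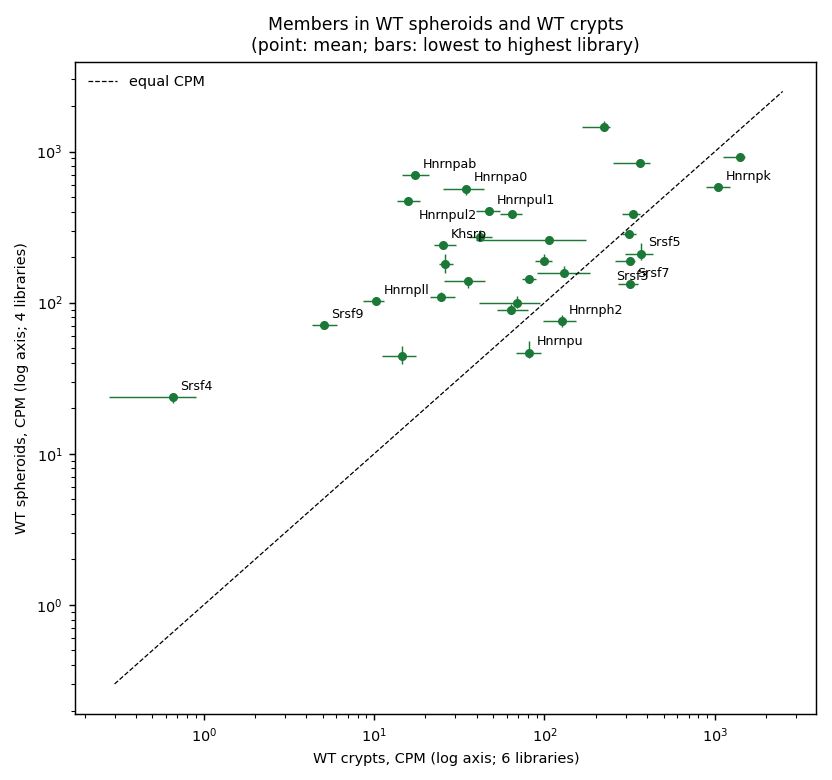
Mean CPM of 31 splicing regulators in WT spheroids (vertical, 4 libraries) against WT crypts (horizontal, 6 libraries), both on log axes, with bars from the lowest to the highest library and a dashed line of equal CPM. Of the 31 genes 23 lie above the line, and Hnrnpab, with a ratio of 40.3, lies farthest from it. Over all 14416 genes, which are not drawn, 8581 were higher in WT spheroids.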

How the data were processed

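RNA-seq of mouse crypts, mouse spheroids and human Caco-2 cells was analysed from the counts of reads per gene that the authors deposited, 1 table for each system. STAR, DESeq2 and the build mm10 are named, without versions, per the submitters' processing notes. The Caco-2 table holds human identifiers, so its build, and whether reads were counted by strand, are not given in the sources used here. Titles gave the sample of each spheroid column, while crypt and Caco-2 columns were assigned to groups by genotype or by the ending of the hairpin's catalogue number. Entries that repeated an identifier were removed (276 of 40757 in mouse, 116 of 55209 in human). Total counts ran from 48068740 to 88869286 in KO and 49536700 to 103352863 in WT crypts, from 51459939 to 63981065 in KO and 44152608 to 67630241 in WT spheroids, and from 37281821 to 43876634 with shFgfr1op and 37989227 to 50965004 with scramble. Chi-square per degree of freedom between replicates was at least 3.98, so no pair agreed within sampling noise.

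Each table was fitted alone with edgeR 4.0.16 (R 4.3.3): filterByExpr, TMM scaling, the robust quasi-likelihood F test and Benjamini-Hochberg adjustment over all genes tested, with calls below 0.05. The absolute log2 fold change over the root of its F gave the SE. CPM is relative to the TMM-scaled total. Also run were edgeR with RLE scaling, no filter, a filter of at least 1 CPM, DESeq2 1.42.0, voom with quality weights (limma 3.58.1), a replicate block and leaving out each library, and, chosen after seeing the data, leaving out crypt KO libraries 4 to 6 and the header number as a block in crypts. The fit was tested on simulated data.

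The members and lists were chosen with earlier results of these data known. For chosen members, values by library are given in spheroids and Caco-2, and the lowest, median and highest values in crypts. They are Khsrp, the 4 members of largest absolute log2 fold change in each comparison, those called in at least 2 comparisons and the 3 of highest CPM per kilobase. From each list at most the 2 genes of largest absolute log2 fold change among those called were named. Hnrnpa0, Hnrnpm in Caco-2 and the other members given outside this rule were picked after their values were seen.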

Additional observations from a re-analysis of the deposited data

Results flagged for a closer look

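A gap test within groups of 4 or 6 libraries marked 16 values in which 1 library stood far from the others of its group. About 1 in 20 groups is marked so by chance. In crypts 13 of 62 member groups were marked, and in spheroids 3 of 64, which is near that rate. Member groups share the same libraries, so the marks are not separate events. Only members were put through this test, so no rate over all genes is given. Of the 16 values, 10 were crypt KO library 1 above the other 5 KO libraries. They were Hnrnpd at 66.2 CPM (others 22.7 to 35.9), Khsrp at 59.1 CPM (24.4 to 31.1), Hnrnpl at 126 CPM (63.6 to 77.1), Srsf6 at 65.5 CPM (30.4 to 41.6) and Srsf1 at 106 CPM (40.0 to 56.6). The others were Hnrnpab at 58.9 CPM (25.4 to 29.2), Hnrnpll at 24.5 CPM (10.9 to 14.5), Srsf9 at 13.4 CPM (6.71 to 8.59), Hnrnpul1 at 79.3 CPM (35.3 to 48.7) and Hnrnpul2 at 30.9 CPM (9.67 to 14.0).

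In crypt WT library 3, 3 A-type hnRNPs were far below the other 5 WT libraries. Hnrnpa2b1 stood at 1109 CPM against 1444 to 1498, Hnrnpa1 at 252 CPM against 371 to 418 and Hnrnpa3 at 167 CPM against 221 to 243.

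In spheroids, Hnrnpa0 was high in KO library 1, at 670 CPM against 612 to 619 in the other KO libraries. In WT spheroids Hnrnpu was high in library 3, at 55.9 CPM against 42.9 to 44.4, and Hnrnpa3 in library 2, at 1585 CPM against 1391 to 1399.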

How the results depend on the processing

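No member changed direction among those called, in any alternative run. In crypts the 7 members called became 4 without a filter on low counts, 4 with the header number as a replicate block and 3 to 9 when 1 library was left out. The 9, without KO library 1, were 8 higher and 1 lower, which was Hnrnpul2. Hnrnpab, Srsf9 and Hnrnpa1 stayed called in each of the 12 such fits. Over all genes, the 4014 called in crypts became 3149 of 29173 without that filter and 2732 of 16413 with the header number as a block. When 1 library was left out they became 2749 to 5005. With limma voom they became 7208, and without KO libraries 4, 5 and 6, an alternative chosen after seeing the data, 924. In spheroids the 37 genes called became 154 without a filter, 581 with DESeq2, 71 with the replicate block and 3 to 160 when 1 library was left out, and DESeq2 called 1 member. In Caco-2 the members' median log2 fold change of 0.10 ran from 0.0805 to 0.124 when 1 library was left out. The block gave 20 members called, as without it, and 5904 genes called, against 6031 without it. The cause of these changes was not tested. Folds of single members moved by more than 1 SD of the replicates in 2 cases in spheroids, 0 in crypts and 5 in Caco-2, all in Srsf12, HNRNPCL1 and HNRNPCL4, which have few counts. Same-numbered libraries correlated at -0.03 to 0.098 in spheroids and 0.003 to 0.044 in Caco-2, so the numbers were not treated as a pairing.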
